A study of Mus musculus with 14 samples.

Results

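The transcripts described here come from 8 genes of the p53 pathway, Cdkn1a, Ccng1, Mdm2, Pmaip1, Apaf1, Perp, Trp53inp1 and Zmat3, measured in whole eyes of newborn mice. They were chosen as a list of 10 p53 target and apoptosis genes, and every probe set that the array annotation gives to 1 of them alone was read. The 8 genes had 14 such probe sets among 20380 probe sets of 12393 genes. Of the 10 genes, Bax, which forms pores in the mitochondrial membrane, and Trp53, which encodes p53 itself, had no probe set of their own in that annotation and were not analysed here.

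The eyes came from 2 experiments in which an ATPase of a chromatin remodelling complex was deleted conditionally, and total RNA was hybridised to 14 single-colour arrays. The Snf2h experiment set 4 lens-conditional knockouts (Snf2h cKO; the gene is Smarca5, of the ISWI family) against 4 wildtype samples. These were all newborn, at postnatal day 1 by their titles, and of strain C57BL/6. The Brg1 experiment set 3 conditional knockouts (Brg1 cKO; the gene is Smarca4, of the SWI/SNF family) against 3 wildtype samples at postnatal day 1, all on a mixed background. The labels name neither the Cre line nor the floxed alleles, do not give the cells in which Brg1 was deleted, and do not say which animals gave each RNA, so p-values measure the spread between these samples. The lens is a small part of the eye, and in RNA of whole eyes fewer cells of a type and less RNA per cell cannot be told apart.

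The transcription factor p53 is stabilised by DNA damage and other stress and then activates genes that halt the cell cycle, genes that start apoptosis, and Mdm2, which ends the response by marking p53 for degradation. Mitochondrial apoptosis runs through BH3-only proteins such as the Pmaip1 product Noxa, through Bax, and through the Apaf1 apoptosome, which activates caspases. In the mouse lens, fibre cells that lack the retinoblastoma protein are known to die by p53-dependent apoptosis.

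Because p53 acts through DNA, the promoter windows of the genes are shown first where they hold the p53 half-site consensus, the sequence that 1 dimer of the p53 tetramer contacts. RefSeq windows (mouse build GRCm38.p6), running from 250 bases before to 50 bases after a start site, were at hand for 4 of the 8 genes, Cdkn1a (with 2 windows), Ccng1, Mdm2 and Apaf1, and not for Pmaip1, Perp, Trp53inp1 and Zmat3. The half-site consensus, which reads the same on both strands, occurred in 3 of these 5 windows, against 8.36% of all 32851 windows in the table (2745 windows). The upstream Cdkn1a window (chr17:29090729-29091028, plus strand) held 2 half-sites, shown in capitals, at positions −73 and −51 from the start site and separated by 12 bases, and 0.359% of all windows held 2 or more. The Ccng1 window (chr11:40755237-40755536, minus strand) held 1 at position −185, and the Mdm2 window (chr10:117710709-117711008, minus strand) held 1 at position −186.
Cdkn1a: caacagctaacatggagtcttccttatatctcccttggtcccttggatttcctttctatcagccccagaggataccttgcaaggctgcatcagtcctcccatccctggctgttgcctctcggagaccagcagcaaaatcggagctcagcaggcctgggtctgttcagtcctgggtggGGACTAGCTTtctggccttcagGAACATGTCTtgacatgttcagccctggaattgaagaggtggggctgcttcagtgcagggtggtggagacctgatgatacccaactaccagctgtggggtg
Ccng1: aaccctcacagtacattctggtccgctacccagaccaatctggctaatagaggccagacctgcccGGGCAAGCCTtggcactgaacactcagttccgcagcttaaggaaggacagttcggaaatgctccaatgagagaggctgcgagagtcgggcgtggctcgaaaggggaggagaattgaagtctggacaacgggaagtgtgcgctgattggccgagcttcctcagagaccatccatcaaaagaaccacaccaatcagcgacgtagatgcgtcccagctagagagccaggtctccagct
Mdm2: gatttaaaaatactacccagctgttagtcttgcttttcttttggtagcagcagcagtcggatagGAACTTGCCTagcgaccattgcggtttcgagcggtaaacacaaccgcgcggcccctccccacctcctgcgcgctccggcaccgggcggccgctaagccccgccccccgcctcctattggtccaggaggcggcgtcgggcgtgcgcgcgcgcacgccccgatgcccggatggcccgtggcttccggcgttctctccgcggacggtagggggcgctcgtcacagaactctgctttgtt
The windows of the second Cdkn1a start site (chr17:29093519-29093818, plus strand) and of Apaf1 (chr10:91082694-91082993, minus strand) did not hold these letters. Only exact matches were marked. The stretch directly after the −51 half-site of Cdkn1a misses the consensus by 1 letter, as does the stretch directly before the Ccng1 half-site. The share of all windows with such near matches was not counted. A match is a description of the sequence and not a site bound in these eyes, and the established p53 elements of Mdm2, in its first intron, lie outside the windows.

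None of the 14 probe sets passed the test in either knockout. A probe set passed where limma's p, adjusted by Benjamini-Hochberg across all 20380 probe sets, was below 0.05. The background was low in the same tests, with 0 probe sets called in Snf2h cKO eyes (0%) and 127 called in Brg1 cKO eyes (0.623%). At an unadjusted p under 0.05, 2 of the 14 were found in Snf2h cKO eyes (Mdm2 1427718_a_at and Pmaip1), where 17.7% of all probe sets were, and 1 in Brg1 cKO eyes (Cdkn1a 1421679_a_at), where 8.13% were. The median log2 difference of the 14 was 0.01 in Snf2h cKO eyes, with 7 above and 7 below 0, and −0.03 over all probe sets, of which 46.2% were above 0. It was 0.07 in Brg1 cKO eyes, with 9 above and 5 below 0, and −0.01 over all probe sets, of which 49.1% were above 0. All Snf2h cKO arrays lay above all their wildtype arrays for 1 of the 14 (6.52% of all probe sets) and below them for 0 (4.17%). All Brg1 cKO arrays lay above theirs for 2 of the 14 (7.23%) and below them for 1 (6.2%). All values below are log2 intensity, differences are knockout minus wildtype with the standard error (SE) of limma, and group levels carry the SD.

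**Figure D1:**
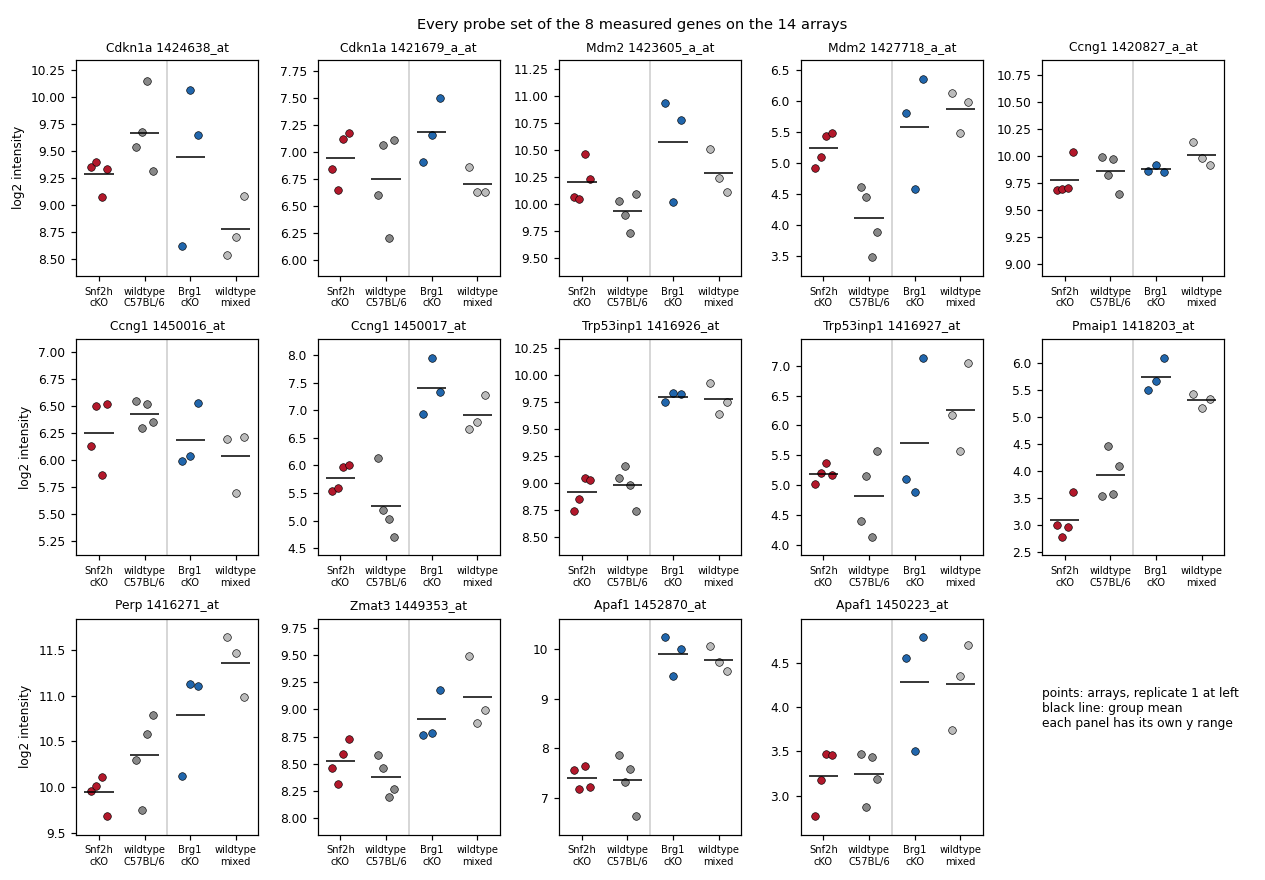
Log2 intensity (vertical axes, a separate range for each panel) of the 14 probe sets of the 8 genes in Snf2h cKO (n = 4), wildtype C57BL/6 (n = 4), Brg1 cKO (n = 3) and wildtype mixed background (n = 3) eyes. Points are arrays with replicate 1 at the left, and black lines are group means. Knockout points mostly lie among those of their own wildtype, while Pmaip1 and Apaf1 sit higher in all 6 arrays of the Brg1 experiment than in all 8 arrays of the Snf2h experiment.

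Some arrays stood apart, and the larger values that moved by more than 1.5 times without them are also given without them. Across probe sets, Snf2h cKO replicates 1 and 2 differed from each other with an SD of 0.217, against 0.419 to 0.723 for the other 17 pairs within groups, so fits with these 2 averaged are quoted. The Gapdh control transcript's 3′ signal exceeded its 5′ signal by 0.775 to 0.989 in Snf2h cKO arrays, against 1.09 to 1.46 in 3 of their wildtype arrays and 4.47 in wildtype C57BL/6 replicate 3 alone. It exceeded it by 0.633 to 0.963 in Brg1 cKO arrays and 0.683 to 0.738 in their wildtype. Cornified skin and hair markers averaged 6.91 in the same wildtype C57BL/6 replicate 3, against 4.09 to 4.64 in the other 3 wildtype arrays. Brg1 cKO replicate 2 had the highest neutrophil marker mean of its group, at 8.04 against 6.02 and 6.38, and the lowest retinal neuron mean, at 8.46 against 9.22 and 9.28. No probe set of the deleted genes passed the test in its own knockout, and for both genes the probe sets disagreed in sign. The 3 Smarca5 probe sets, brightest first, gave −0.19 ± 0.25 (adjusted p = 0.711), −0.50 ± 0.16 (unadjusted p = 0.0128, adjusted p = 0.188) and 0.31 ± 0.25 (adjusted p = 0.538) in Snf2h cKO eyes. The 2 Smarca4 probe sets gave 0.05 ± 0.22 (adjusted p = 0.972) at the brighter and −0.74 ± 0.30 (unadjusted p = 0.0389, adjusted p = 0.579) at the dimmer in Brg1 cKO eyes (limma). Where these probes lie relative to the deleted sequence is not given in the sources used here.

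Cdkn1a, which encodes the cyclin-dependent kinase inhibitor p21, the main effector of p53 arrest, had opposite signs in the knockouts at its brighter probe set and passed the test in neither. Probe set 1424638_at stood at 9.35, 9.39, 9.08 and 9.33 in Snf2h cKO eyes, against 9.53, 9.67, 10.15 and 9.31 in wildtype eyes. Of the 4 wildtype arrays, 3 were above every knockout array, and wildtype replicate 4 lay inside the knockout range. The difference was −0.38 ± 0.19 (adjusted p = 0.322), with a 95% interval of −0.80 to 0.04, which reaches down to 0.575-fold of the wildtype level. Leaving out wildtype replicate 3, the array with the skin and hair signal and the high Gapdh value, gave −0.22 (adjusted p = 0.531).

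The same probe set stood in Brg1 cKO eyes at 8.62, 10.06 and 9.65, against 8.54, 8.70 and 9.08 in wildtype eyes. Knockout replicates 2 and 3 were above all wildtype arrays and knockout replicate 1 was not. The difference of 0.67 ± 0.37 had a 95% interval of −0.19 to 1.53 (adjusted p = 0.732). It was 0.36 without knockout replicate 2 (adjusted p = 0.869) and 1.08 without knockout replicate 1 (adjusted p = 0.198), so the size depended on which of the 3 arrays entered. The Brg1 cKO arrays also differed in marker lists: 4 of 12 measured neutrophil markers and 8 of 10 wounded epithelium markers were called higher, where 76 of all genes were (0.613%). The neutrophil mean was 6.02, 8.04 and 6.38 in Brg1 cKO eyes and 4.06 to 4.44 in wildtype eyes, and the wounded epithelium mean was 8.95, 9.94 and 9.61 in Brg1 cKO eyes and 5.37 to 5.40 in wildtype eyes. The lists share S100a8, S100a9 and Il1b. Both were highest in replicate 2 of the knockout, which also had the highest value of Cdkn1a 1424638_at. At the other Cdkn1a probe set, 1421679_a_at, replicate 3 was highest (7.50) and replicate 2 stood at 7.15. The part of these lists in the Cdkn1a values was not tested. Lens fibre markers had lower means in these arrays: 12 of 12 measured were below 0, with a median of −2.36. Over all genes, 52.8% were above 0. Of the 12 markers, 4 were called lower, where 59 of all genes were (0.476%). Their mean was 8.17, 9.56 and 7.19 in Brg1 cKO eyes and 10.69 to 10.97 in wildtype eyes, so every Brg1 member value was read in eyes with less lens fibre signal, whose part was also not tested. In Snf2h cKO eyes 11 of 12 lens fibre markers were below 0, with a median of −0.46 and 0 called. Over all genes, 43.5% were above 0 there. The lens fibre mean was 9.85, 9.81, 10.72 and 10.82 in Snf2h cKO eyes, against 10.93, 10.98, 10.49 and 11.04 in wildtype eyes. The part of this signal in the Snf2h member values was not tested either.

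The dimmer Cdkn1a probe set, 1421679_a_at, stood at 6.84, 6.64, 7.12 and 7.17 in Snf2h cKO eyes, against 6.60, 7.06, 6.20 and 7.11 in wildtype eyes. These groups overlapped, with a difference of 0.20 ± 0.22 (adjusted p = 0.661), of the opposite sign to the brighter probe set. It was 0.018 without wildtype replicate 3 (adjusted p = 0.974) and 0.0020 with arrays weighted by their estimated precision (adjusted p = 0.996). The Brg1 cKO eyes had 6.91, 7.15 and 7.50, against 6.86, 6.62 and 6.62 in wildtype eyes. All 3 knockout arrays were above all 3 wildtype arrays, by a mean of 0.48 ± 0.20 (95% interval 0.01 to 0.96, unadjusted p = 0.0456, adjusted p = 0.599 in limma).

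Ccng1 encodes cyclin G1, a p53 target that recruits a phosphatase to Mdm2. Its brightest probe set, 1420827_a_at, averaged 9.78 ± 0.17 in Snf2h cKO eyes and 9.86 ± 0.16 in wildtype eyes (n = 4 each), a difference of −0.08 ± 0.15 (adjusted p = 0.800). The 95% interval ran from −0.40 to 0.25. For the Brg1 experiment it stood at 9.86, 9.91 and 9.86 in knockout eyes, against 10.13, 9.99 and 9.92 in wildtype eyes. All knockout arrays lay just below all wildtype arrays, and the difference of −0.14 ± 0.16 did not pass (adjusted p = 0.878, limma). The other Ccng1 probe sets disagreed with it in sign in at least 1 knockout: 1450016_at gave −0.18 ± 0.18 in Snf2h cKO eyes and 0.15 ± 0.23 in Brg1 cKO eyes, and 1450017_at gave 0.51 ± 0.28 and 0.50 ± 0.30 in these 2 comparisons (adjusted p of 0.371 to 0.910). The values of 1450017_at were smaller in some settings, at 0.22 with array weights in Snf2h cKO eyes (adjusted p = 0.604) and 0.22 without Brg1 cKO replicate 2 (adjusted p = 0.892). They were larger in others, at 0.80 without wildtype C57BL/6 replicate 1 (adjusted p = 0.0944) and 0.74 without Brg1 cKO replicate 1 (adjusted p = 0.547).

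Mdm2, the ubiquitin ligase that degrades p53 and is itself a p53 target, held the smallest adjusted p of the set in Snf2h cKO eyes. The probe set concerned, 1427718_a_at, stood at 4.92, 5.10, 5.44 and 5.49 in Snf2h cKO eyes, against 4.62, 4.45, 3.48 and 3.89 in wildtype eyes. All 4 knockout arrays were above all 4 wildtype arrays, by a mean of 1.13 ± 0.26, or 2.19-fold (95% interval 0.55 to 1.70, unadjusted p = 0.00149, adjusted p = 0.109 in limma). Averaging knockout replicates 1 and 2 gave 1.20 with an adjusted p of 0.260, and leaving out wildtype replicate 3 gave 0.92 with an adjusted p of 0.147. Over all alternative settings the difference lay between 0.49 and 1.30. The adjusted p ran from 0.0556, without wildtype replicate 1, to 0.301, so it passed in none. The probe set is dim, below the median level of 6.87 over all probe sets, as were 6 of the 14. An intensity offset of 32 before log2, which shrinks differences of dim probe sets, gave 0.49 (adjusted p = 0.101). Retinal neuron markers also averaged higher in every Snf2h cKO array, at 9.40 to 9.61, than in the wildtype arrays, at 8.94 to 9.16. Photoreceptor markers averaged 8.71 to 9.28 in Snf2h cKO and 8.26 to 8.61 in wildtype arrays. The part of these retinal signals in the Snf2h member values was not tested.

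The brighter Mdm2 probe set, 1423605_a_at, stood at 10.06, 10.05, 10.47 and 10.23 in Snf2h cKO eyes, against 10.03, 9.90, 9.73 and 10.09 in wildtype eyes. Both probe sets were higher on average in the knockout, but here the groups overlapped and the difference was 0.27 ± 0.15 (95% interval −0.07 to 0.60, adjusted p = 0.379), an interval that ends below the estimate of the dim probe set. Brg1 cKO eyes had 10.94, 10.02 and 10.78 at the brighter probe set, against 10.51, 10.24 and 10.11 in wildtype eyes, a difference of 0.29 ± 0.27 (adjusted p = 0.841). The dim one stood at 5.82, 4.57 and 6.37 in Brg1 cKO eyes, against 6.13, 5.49 and 5.98 in wildtype eyes (difference −0.28 ± 0.44, adjusted p = 0.914). In both, knockout replicate 2 was the lowest of the 6 arrays, and without it the brighter gave 0.57 (adjusted p = 0.475) and the dim one turned to 0.22 (adjusted p = 0.899).

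Pmaip1 encodes Noxa, a BH3-only protein that binds the survival factor Mcl1. Its only probe set, 1418203_at, stood at 2.99, 2.78, 2.96 and 3.60 in Snf2h cKO eyes, against 3.54, 4.47, 3.57 and 4.09 in wildtype eyes. Of the 4 knockout arrays, 3 were below all wildtype arrays, and knockout replicate 4 was above the lower 2 of them. The difference of −0.83 ± 0.25, or 56.1% of the wildtype level, did not pass (95% interval −1.40 to −0.27, unadjusted p = 0.00814, adjusted p = 0.171 in limma). It passed in 1 alternative, with arrays weighted by their estimated precision (−1.03, adjusted p = 0.0494), among alternatives whose adjusted p ran from 0.0494 to 0.386, and with knockout replicates 1 and 2 averaged it was −0.77 (adjusted p = 0.351). With the offset of 32 it was −0.22 (adjusted p = 0.243), the smallest of the alternatives.

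Pmaip1 in Brg1 cKO eyes stood at 5.49, 5.65 and 6.09, against 5.43, 5.17 and 5.33 in wildtype eyes. All 3 knockout arrays were above all 3 wildtype arrays, with a difference of 0.44 ± 0.21 (95% interval −0.04 to 0.91, adjusted p = 0.661), which the offset reduced to 0.26. The probe set is dim, below the median level, and with no detection calls among the values used here its height above background in the Snf2h experiment was not tested.

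Apaf1, the scaffold of the apoptosome, had differences within 0.12 of 0 at both probe sets in both knockouts. Its brighter probe set, 1452870_at, stood at 7.56, 7.18, 7.64 and 7.22 in Snf2h cKO eyes, against 7.87, 7.32, 7.59 and 6.63 in wildtype eyes. The knockout range lay inside the wildtype range, and the difference was 0.05 ± 0.25 (95% interval −0.52 to 0.62, adjusted p = 0.937). The Brg1 cKO eyes stood at 10.25, 9.46 and 10.02, against 10.08, 9.74 and 9.56 in wildtype eyes, a difference of 0.12 ± 0.25 (95% interval −0.47 to 0.70, adjusted p = 0.942). The dim probe set 1450223_at gave −0.02 ± 0.20 in Snf2h cKO eyes and 0.02 ± 0.38 in Brg1 cKO eyes. The sign of both Apaf1 probe sets turned with single arrays left out in both experiments.

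Perp encodes a membrane protein that was found as an apoptosis effector of p53 and is also a component of desmosomes in stratified epithelium, where p63 drives it. Probe set 1416271_at stood at 9.96, 10.01, 10.11 and 9.68 in Snf2h cKO eyes, against 10.29, 9.75, 10.58 and 10.79 in wildtype eyes. Of the 4 wildtype arrays, 3 were above all knockout arrays, and wildtype replicate 2 was below 3 of them. The difference was −0.41 ± 0.22 (95% interval −0.91 to 0.09, adjusted p = 0.362), and −0.27 without wildtype replicate 4 or −0.24 with array weights. Perp stood in Brg1 cKO eyes at 10.12, 11.13 and 11.11, against 11.64, 11.46 and 10.98 in wildtype eyes, with overlap and a difference of −0.57 ± 0.32 (95% interval −1.32 to 0.17, adjusted p = 0.736). Without knockout replicate 1 it was −0.24 (adjusted p = 0.842).

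Beside Perp, 11 of 12 desmosome genes and 6 of 11 surface epithelium markers were below 0 in Snf2h cKO eyes. In Brg1 cKO eyes 10 of 12 and 10 of 11 were below 0. Over all genes, 43.5% were above 0 in Snf2h cKO eyes and 52.8% in Brg1 cKO eyes. The surface epithelium count in Snf2h cKO eyes, with 5 of 11 above 0, was near the share of all genes. The mean of 12 desmosome genes, a list that holds no member, was 7.27, 7.23, 7.15 and 6.95 in Snf2h cKO eyes, against 7.51, 7.13, 8.14 and 7.80 in wildtype eyes. In both this list and Perp, wildtype replicate 2 lay among the knockout arrays. In the Brg1 experiment the desmosome mean was 6.88, 7.62 and 7.13 in knockout eyes, against 7.65, 7.59 and 7.39 in wildtype eyes, and knockout replicate 1 was lowest in the list and in Perp. The mean of 11 surface epithelium markers was 8.15, 8.16, 7.82 and 7.34 in Snf2h cKO eyes, against 8.21, 7.64, 8.73 and 8.51 in wildtype eyes, and 6.51, 7.08 and 7.44 in Brg1 cKO eyes, against 8.78, 8.67 and 8.43 in wildtype eyes. The part of these epithelial signals in the Perp values was not tested.

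**Figure D2:**
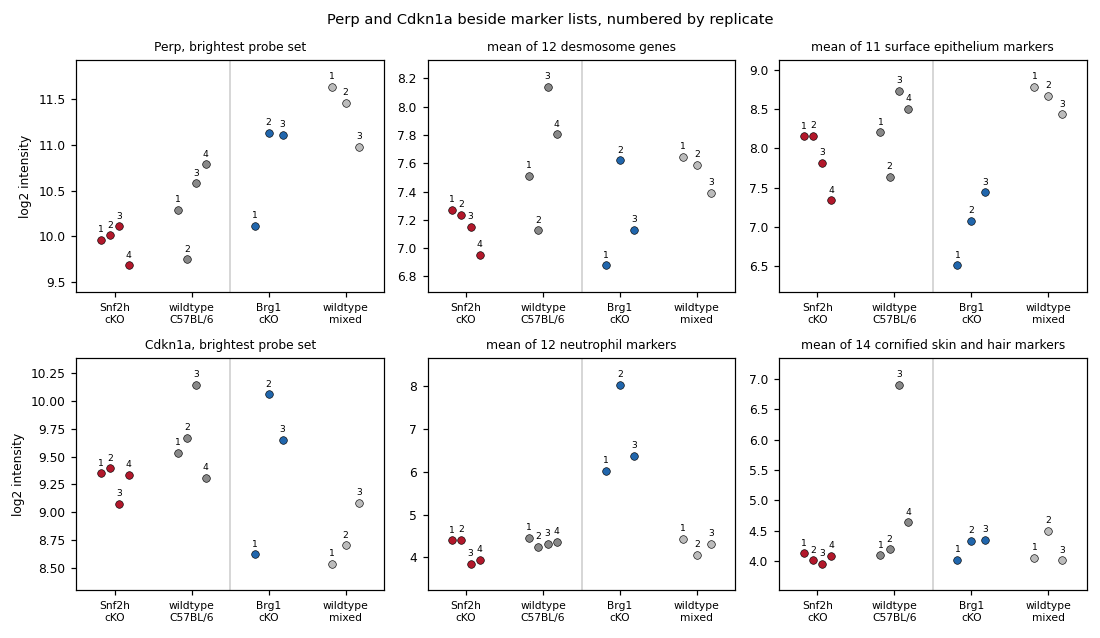
Log2 intensity (vertical axes, a separate range for each panel) of Perp with the means of 12 desmosome genes and 11 surface epithelium markers (top row), and of Cdkn1a 1424638_at with the means of 12 neutrophil and 14 cornified skin and hair markers (bottom row). Points are arrays numbered by replicate in the 4 groups. Brg1 cKO replicate 1 is lowest of its experiment in the top row, Brg1 cKO replicate 2 is highest in its experiment for this Cdkn1a probe set and the neutrophil mean, and wildtype C57BL/6 replicate 3 stands alone in the skin and hair mean at 6.91.

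Trp53inp1 encodes a stress-induced nuclear protein that promotes p53 activity and autophagy. Its brighter probe set, 1416926_at, averaged 8.92 ± 0.15 in Snf2h cKO eyes and 8.98 ± 0.18 in wildtype eyes (n = 4 each), with a 95% interval of the difference from −0.39 to 0.26. It averaged 9.80 ± 0.05 in Brg1 cKO eyes, against 9.77 ± 0.14 in wildtype eyes (n = 3 each), with an interval of −0.35 to 0.40. As folds these intervals run from 0.763 to 1.20 in Snf2h cKO eyes and from 0.786 to 1.32 in Brg1 cKO eyes. The dim probe set 1416927_at varied more. It stood at 5.01, 5.20, 5.37 and 5.17 in Snf2h cKO eyes, against 4.40, 5.15, 4.14 and 5.57 in wildtype eyes, with overlap and a difference of 0.37 ± 0.29 (adjusted p = 0.518), or 0.15 without wildtype replicate 3. It ran from 4.89 to 7.13 in Brg1 cKO eyes and from 5.57 to 7.04 in wildtype eyes. The Brg1 difference of −0.56 ± 0.63 is not resolved (adjusted p = 0.876) and lay between −1.27 and −0.15 with 1 array left out.

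Zmat3, a p53 target that encodes an RNA-binding zinc finger protein, averaged 8.52 ± 0.18 in Snf2h cKO eyes and 8.38 ± 0.18 in wildtype eyes (n = 4 each), a difference of 0.15 ± 0.15 (95% interval −0.19 to 0.48, adjusted p = 0.626). Brg1 cKO eyes averaged 8.91 ± 0.24, against 9.12 ± 0.33 in wildtype eyes (n = 3 each), a difference of −0.21 ± 0.23 (95% interval −0.74 to 0.32, adjusted p = 0.869). Without mixed background wildtype replicate 1 it was −0.023, and in Snf2h cKO eyes it was 0.086 without wildtype replicate 3. The groups overlapped in both experiments.

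**Figure D3:**
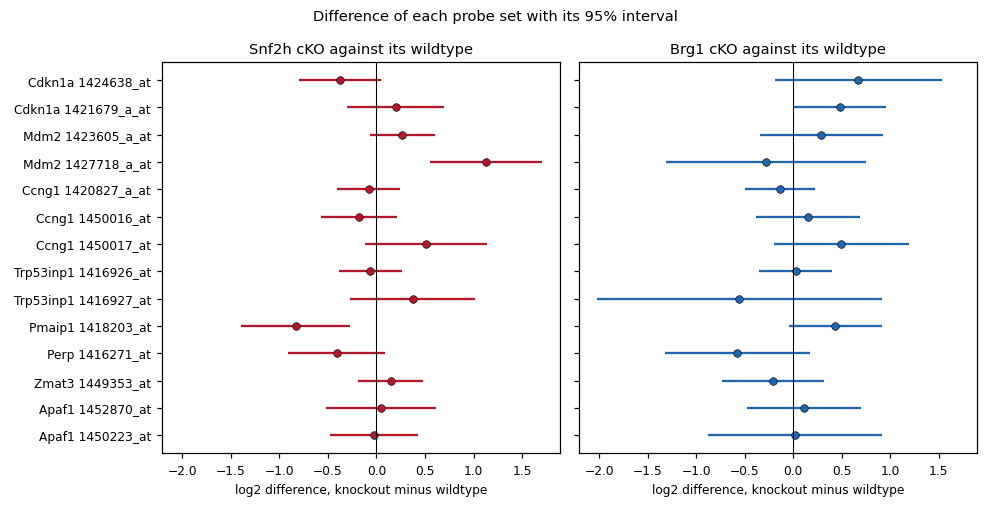
Log2 difference (horizontal axes, knockout minus wildtype) of each of the 14 probe sets in Snf2h cKO (left) and Brg1 cKO eyes (right). Points are limma estimates and bars are 95% intervals. The intervals of Mdm2 1427718_a_at and Pmaip1 in Snf2h cKO eyes and of Cdkn1a 1421679_a_at in Brg1 cKO eyes leave out 0, before any adjustment for 20380 probe sets.

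Probe sets of 1 gene often disagreed. Of the 5 genes with several probe sets, only Mdm2 had the same sign at all of them in Snf2h cKO eyes, and only Cdkn1a and Apaf1 did in Brg1 cKO eyes. Which transcripts each probe set reads is not given in the sources used here.

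The knockouts were compared with each other directly, as the Brg1 cKO difference minus the Snf2h cKO difference over all 14 arrays, and none of the 14 probe sets passed, where 140 of all probe sets did (0.687%). At an unadjusted p under 0.05 there were 3 of the 14, against 12.6% of all probe sets. Pmaip1 had 0.44 in Brg1 cKO and −0.83 in Snf2h cKO eyes, a difference of 1.27 ± 0.35 (adjusted p = 0.155). The offset of 32 brought it to 0.49, and that of Mdm2 1427718_a_at to −0.62. For Mdm2 1427718_a_at the values were −0.28 and 1.13 (difference −1.41 ± 0.52, adjusted p = 0.277, and −0.90 without Brg1 cKO replicate 2), and for Cdkn1a 1424638_at 0.67 and −0.38 (difference 1.05 ± 0.41, adjusted p = 0.300, limma). The 2 experiments share no wildtype arrays.

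The experiments separated completely at 6 of the 14 probe sets and overlapped at the other 8. For those 6, from 5 genes, all 6 arrays of the Brg1 experiment were above all 8 arrays of the Snf2h experiment, against 10.4% of all probe sets, and for 0 of the 14 were they all below, against 11.2%. Apaf1 1452870_at lay between 9.46 and 10.25 in the Brg1 experiment and between 6.63 and 7.87 in the Snf2h experiment. Pmaip1 lay between 5.17 and 6.09 in the Brg1 experiment and between 2.78 and 4.47 in the Snf2h experiment. Trp53inp1 1416926_at lay between 9.64 and 9.93 in the Brg1 experiment and between 8.74 and 9.16 in the Snf2h experiment, and Ccng1 1450017_at between 6.66 and 7.95 and between 4.71 and 6.13. The gap was narrow for Zmat3, at 8.76 to 9.49 in the Brg1 experiment and 8.19 to 8.73 in the Snf2h experiment, and for Apaf1 1450223_at, at 3.51 to 4.79 and 2.77 to 3.47. Strain and experiment cannot be told apart here, and the sources used here do not say if both experiments were normalised together.

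The order of the 4 group means varied by gene. Pmaip1 was highest in Brg1 cKO eyes (5.74 ± 0.31), then in mixed background wildtype (5.31 ± 0.13), C57BL/6 wildtype (3.92 ± 0.45) and Snf2h cKO eyes (3.08 ± 0.36), with overlap between the last pair only. Perp was highest in mixed background wildtype (11.36 ± 0.34), then in Brg1 cKO (10.79 ± 0.58), C57BL/6 wildtype (10.35 ± 0.45) and Snf2h cKO eyes (9.94 ± 0.18), with overlap between each pair of neighbours. Mdm2 1423605_a_at was highest in Brg1 cKO eyes (10.58 ± 0.49), then in mixed background wildtype (10.29 ± 0.20), Snf2h cKO (10.20 ± 0.19) and C57BL/6 wildtype eyes (9.94 ± 0.16), again with overlap between neighbours. Cdkn1a 1424638_at had C57BL/6 wildtype highest (9.67 ± 0.35), then Brg1 cKO (9.44 ± 0.74), Snf2h cKO (9.29 ± 0.14) and mixed background wildtype (8.77 ± 0.28), and neighbours overlapped.

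The rest of the pathway was read at 1 probe set per gene, the brightest, from lists of genes with known roles, and no gene of these lists passed in either knockout. Over all 12393 genes, 2 were called in Snf2h cKO eyes (0.0161%) and 135 in Brg1 cKO eyes (1.09%). Each list is therefore given by its median, beside a median over all genes of −0.05 in Snf2h cKO and 0.02 in Brg1 cKO eyes.

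Among 27 measured of 30 other p53 target genes, the median difference was 0.14 in both knockouts, with 17 above and 10 below 0 in Snf2h cKO eyes and 16 above and 11 below 0 in Brg1 cKO eyes. Over all genes, 43.5% and 52.8% were above 0 in these comparisons. Ddit4, an inhibitor of the growth kinase complex mTORC1, averaged 11.42 in Snf2h cKO and 10.65 in wildtype eyes, a difference of 0.77 ± 0.22 (adjusted p = 0.190), and 11.99 in Brg1 cKO against 11.49 in wildtype eyes (0.51 ± 0.19, adjusted p = 0.437). Dram1, a lysosomal protein of p53-dependent autophagy, had opposite signs, at −1.08 ± 0.32 in Snf2h cKO eyes (adjusted p = 0.199) and 1.16 ± 0.44 in Brg1 cKO eyes (adjusted p = 0.454). Btg2, an antiproliferative p53 target, gave 0.40 (adjusted p = 0.254) in Snf2h cKO eyes, while its dimmer probe set gave 1.74 ± 0.57 (adjusted p = 0.188) and the mean of both 1.07 (adjusted p = 0.177). The kinase gene Plk3 gave 0.31 (adjusted p = 0.266) in Snf2h cKO eyes, or 0.12 with the offset. The death receptor gene Fas gave 0.61 (adjusted p = 0.597) in Brg1 cKO eyes, or 0.35 without knockout replicate 2, and the ferrireductase gene Steap3 gave 0.78 (adjusted p = 0.556), or 0.36 with the offset.

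Of the regulators and cofactors of p53, 16 of 22 were measured, with medians of −0.01 in Snf2h cKO and −0.05 in Brg1 cKO eyes. Atm, the kinase that signals DNA breaks to p53, stood at 6.58, 6.66, 6.74 and 6.35 in Snf2h cKO eyes, against 6.15, 5.49, 5.38 and 6.03 in wildtype eyes. All knockout arrays were above all wildtype arrays, by 0.82 ± 0.20, and the adjusted p was 0.163. The p53 relative Trp63, the master factor of stratified epithelium, had the largest differences of this list, at −1.47 ± 0.24 in Snf2h cKO eyes (adjusted p = 0.0839) and −1.94 ± 0.45 in Brg1 cKO eyes (adjusted p = 0.140), with no overlap in either. These are its brightest probe set alone: the other 2, both dim, gave 0.02 and 0.11 in Snf2h cKO eyes and 0.07 and 0.26 in Brg1 cKO eyes, and the mean of its probe sets gave −0.45 (adjusted p = 0.177) and −0.54 (adjusted p = 0.477). Trp63 is also 1 of the 11 surface epithelium markers described beside Perp. Hipk2, a kinase that phosphorylates p53, gave 0.56 (adjusted p = 0.205) and the checkpoint kinase gene Chek1 gave −0.32 (adjusted p = 0.265) in Snf2h cKO eyes. Cdkn2a, whose Arf product inhibits Mdm2, gave 0.70 in Brg1 cKO eyes (adjusted p = 0.408), or 0.23 with the offset, where Chek2 gave −0.65 (adjusted p = 0.419) and Trp53bp1 gave 0.33 (adjusted p = 0.754).

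In the BCL2 family, 15 of 20 genes were measured, and the list includes Pmaip1. The medians were −0.10 in Snf2h cKO and 0.19 in Brg1 cKO eyes. Survival and death genes were both among those with the smallest p in Snf2h cKO eyes: the survival gene Bcl2 gave 0.58 ± 0.18 (adjusted p = 0.202), the BH3-only gene Bcl2l11 gave 0.40 (adjusted p = 0.255) and the mitophagy receptor gene Bnip3 gave 0.48 (adjusted p = 0.255). Bnip3 in Brg1 cKO eyes gave 0.74 (adjusted p = 0.468), Bcl2l11 gave 0.43 (adjusted p = 0.594) and the BH3-only gene Hrk gave −0.30 (adjusted p = 0.677).

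The caspase and apoptosome list, with 20 of 22 genes measured including Apaf1, had medians of −0.01 in Snf2h cKO and 0.04 in Brg1 cKO eyes. At the brightest probe sets, 0 of the 20 had an unadjusted p under 0.05 in Snf2h cKO eyes (16.9% of all genes). The smallest p in Snf2h cKO eyes belonged to the inhibitor of apoptosis gene Birc3 (−0.55 ± 0.25, adjusted p = 0.304), Casp8ap2 (−0.24, adjusted p = 0.493), Parp1 (−0.14, adjusted p = 0.546) and the DNA fragmentation nuclease gene Dffb (0.37, adjusted p = 0.552). Birc3 stood at 6.85, 7.99 and 7.48 in Brg1 cKO eyes, against 6.40, 6.00 and 6.43 in wildtype eyes, and all knockout arrays were above all wildtype arrays (1.16 ± 0.30, adjusted p = 0.187). The other named genes in Brg1 cKO eyes were Casp6 at −0.49 (adjusted p = 0.613, or −0.28 without knockout replicate 2), Endog at 0.35 (adjusted p = 0.687) and Casp8ap2 at −0.37 (adjusted p = 0.710).

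For death receptor signalling, 12 of 13 genes were measured, with medians of −0.14 in Snf2h cKO and 0.23 in Brg1 cKO eyes. Ripk3, the kinase of necroptosis, stood at 6.43, 7.35 and 6.62 in Brg1 cKO eyes, against 5.88, 5.36 and 5.75 in wildtype eyes. All knockout arrays were above all wildtype arrays, by 1.14 ± 0.28 (adjusted p = 0.155), and knockout replicate 2 was the highest, as it was for Birc3 and for the neutrophil markers, whose part in these values was not tested. The receptor gene Tnfrsf1a gave 0.66 (adjusted p = 0.420) and the cytokine gene Tnf gave 0.89 (adjusted p = 0.437) in Brg1 cKO eyes, and without knockout replicate 2 these were 0.43 and 0.51. In Snf2h cKO eyes the adaptor genes gave −0.58 ± 0.19 for Fadd (adjusted p = 0.215), −0.33 for Tradd (adjusted p = 0.377) and 0.31 for Traf2 (adjusted p = 0.313), and the ligand gene Tnfsf10 gave −0.38 (adjusted p = 0.357).

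The desmosome list, read beside Perp, had the medians farthest from 0 of these lists, at −0.40 in Snf2h cKO and −0.31 in Brg1 cKO eyes. In these comparisons 11 of 12 and 10 of 12 genes were below 0, where 43.5% and 52.8% of all genes were above 0. Wildtype C57BL/6 replicate 3, the array with the skin and hair signal, had the highest desmosome mean of the Snf2h experiment, at 8.14. The desmosome list shares Dsg1a and Dsc1 with the skin and hair list, and its median without that array was not taken. The desmosomal cadherin Dsg2 stood at 6.57, 6.65, 6.53 and 6.19 in Snf2h cKO eyes, against 7.60, 7.47, 8.93 and 8.10 in wildtype eyes, and the groups did not overlap (−1.54 ± 0.30, adjusted p = 0.122, and −0.80 as the mean of its probe sets). Dsg2 stood in Brg1 cKO eyes at 6.70, 7.36 and 7.11, against 8.16, 7.83 and 7.68 in wildtype eyes, again without overlap (−0.84 ± 0.23, adjusted p = 0.213). Its partner cadherin Dsc2 gave −0.92 ± 0.20 in Snf2h cKO (adjusted p = 0.156) and −0.93 ± 0.24 in Brg1 cKO eyes (adjusted p = 0.184). The plaque genes Pkp1 (−1.03, adjusted p = 0.248, and −0.66 without wildtype replicate 3) and Ppl (−0.67, adjusted p = 0.256) followed in Snf2h cKO eyes, and Ppl (−0.77, adjusted p = 0.562) and Evpl (−0.65, adjusted p = 0.643) in Brg1 cKO eyes, and without knockout replicate 1 these last 2 were −0.47 and −0.43.

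**Figure D4:**
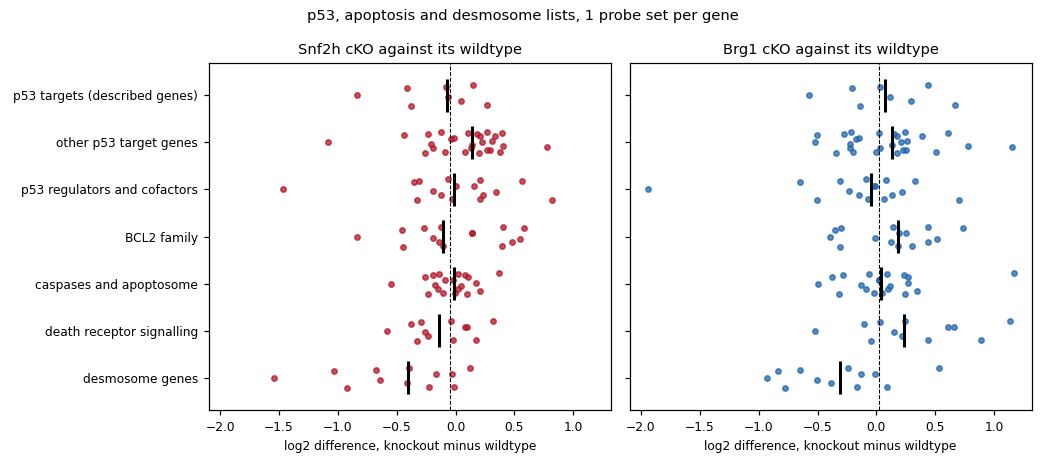
Log2 difference (horizontal axes, knockout minus wildtype) of every measured gene of 7 lists, 1 probe set per gene, in Snf2h cKO (left) and Brg1 cKO eyes (right). Points are genes, black bars are list medians and the dashed line is the median over all 12393 genes. The desmosome median lies farthest left in both panels, at −0.40 and −0.31, and the other medians lie between −0.14 and 0.23.

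For each of the 8 genes, the 3 genes with the most similar brightest probe set were found by Pearson correlation over the 14 arrays after each experiment's mean was removed, as a description of shared variation that includes array quality and tissue make-up. Perp was most like Krt4 (r = 0.922), a keratin of stratified epithelium, Col17a1 (0.916), a hemidesmosome collagen, and Esrp1 (0.900), an epithelial splicing factor. Cdkn1a was most like Lgals3bp (0.921), Ctsb (0.919), which encodes the lysosomal protease cathepsin B, and Pilrb1 (0.903), a receptor of myeloid cells. Pmaip1 was most like Olfr15 (0.938), Arf3 (0.907) and Cd28 (0.898), and Mdm2 was most like Tub (0.910), Nup107 (0.901) and Scn8a (0.900). Apaf1 was most like Ddx10 (0.903), Phf12 (0.899) and Eif4enif1 (0.894), and Zmat3 most like Tmod3 (0.857), Bcl2 (0.856) and Dbt (0.855). Ccng1 was most like C230091D08Rik (0.891), Myo6 (0.850) and Rmdn3 (0.814), and Trp53inp1 most like Ddx46 (0.883), Ergic2 (0.850) and Klf10 (0.833). Best matches were picked among 12393 genes over few arrays, so values of this size carry no test.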

How the data were processed

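RNA of whole eyes (14 arrays, 4 groups) was amplified from 50 ng and labelled with biotin, per the labels. The deposited values are linear intensity per probe set from RMA, per the submitters' processing notes, which give no version. Median intensity lay between 101 and 114 on every array. No detection calls were used, dim probe sets were kept and the number of arrays limits the precision. Genes came from the platform annotation: 20380 of 22690 probe sets named 1 gene, 691 several, 1555 none, and 64 were controls. The log2 was taken with no further scaling.

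Each knockout was compared with its own wildtype, and the knockouts with each other as an interaction contrast, with limma 3.58.1 (lmFit, eBayes) in R 4.3.3, two-sided, with Benjamini-Hochberg adjustment over all 20380 probe sets, or over 12393 genes (the probe set with the highest mean) for the lists. The pipeline was tested on simulated data. The genes named are all members, Smarca5 and Smarca4, up to 4 genes per list and comparison with the smallest p, and the 3 best correlated genes per member. The members and lists were chosen with earlier results of these data known, and the comparisons, alternatives and naming rule were written down after that. Alternatives were quantile normalisation, a filter on dim probe sets (median level 6.87), an offset of 32, other probe set rules, array weights, trended robust eBayes, a replicate block, a required log2 fold of 1, a joint fit of all 14 arrays, averaging Snf2h cKO replicates 1 and 2, and leaving out each array. Promoter windows are RefSeq's, searched for the p53 half-site consensus.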

Additional observations from a re-analysis of the deposited data

Results flagged for a closer look

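Of 28 groups of 4 arrays examined, Dixon's test at 95% marked 1, where chance marks about 1 in 20. Ccng1 1420827_a_at stood at 10.03 in Snf2h cKO replicate 4, against 9.69 to 9.70 in the other 3 knockout arrays, and the gap was 0.946 of the group's range. The wildtype arrays of that experiment lay between 9.65 and 9.99.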

How the results depend on the processing

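No member passed the test under any alternative except Pmaip1 in Snf2h cKO eyes with array weights (−1.03, adjusted p = 0.0494). Over these settings 11 of 14 member probe sets kept their sign in Snf2h cKO eyes and 9 of 14 in Brg1 cKO eyes. In Snf2h cKO eyes Zmat3 turned to −0.011 with array weights, Apaf1 1452870_at to −0.072 with array weights and to −0.013 and −0.011 with quantile normalisation of all arrays and within experiments, and Apaf1 1450223_at to 0.18 and 0.17 with the same 2 and to 0.060 with knockout replicates 1 and 2 averaged. The mean of a gene's probe sets turned Parp1 (0.31) and Tradd (0.017) in Snf2h cKO eyes and Smarca4 (−0.35) in Brg1 cKO eyes. Leaving out 1 array gave −0.14 to 0.13 (Snf2h) and −0.25 to 0.40 (Brg1) for Apaf1 1450223_at, −0.19 to 0.22 and −0.053 to 0.34 for Apaf1 1452870_at, −0.018 to 0.25 for Ccng1 1450016_at, −0.67 to 0.22 for Mdm2 1427718_a_at, −0.039 to 0.10 for Trp53inp1 1416926_at and −0.14 to 0.21 for Smarca4 in Brg1 cKO eyes, and −0.34 to 0.059 for Smarca5 in Snf2h cKO eyes. Other named genes passed in single settings: Atm, Ddit4, Dsg2 and Trp63 in Snf2h cKO eyes with array weights, Ripk3 and Trp63 in Brg1 cKO eyes with 1 fit over all arrays, Trp63 without Brg1 cKO replicate 3 and Ppl without Brg1 cKO replicate 2.

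Counts over all probe sets moved far more, and the cause was not tested. In Snf2h cKO eyes the 0 calls (3610 at an unadjusted p under 0.05) became 3 with the offset or with unannotated probe sets kept, 5 with the filter or 1 fit, 7 with trended robust eBayes and 561 with array weights, and lay between 0 and 184 with 1 array left out, 184 without wildtype replicate 1 and 77 without wildtype replicate 4. In Brg1 cKO eyes the 127 became 15 with the filter, 16 with the offset, 280 with 1 fit, and 25 to 199 with 1 array left out, moving by more than 1.5 times for each array except Brg1 cKO replicate 1. For the interaction the 140 became 7 with the filter, 47 with the offset, 82 with replicates averaged, and 66 to 290 with 1 array left out. Per gene, the 2 calls in Snf2h cKO eyes became 0 with replicates averaged, 1 with quantile normalisation of all arrays, 4 with 1 fit, 5 with the filter or the offset, 7 with trended robust eBayes, 230 with array weights, and 0 to 60 with 1 array left out. The 135 in Brg1 cKO eyes became 12, 14, 209 and 260 with the filter, the offset, array weights and 1 fit, and 26 to 215 with 1 array left out. Replicate numbers did not pair the arrays, with correlations of same-numbered deviations from −0.230 to 0.057 in the Snf2h experiment and 0.066 to 0.133 in the Brg1 experiment. The fit with the replicate block called 0 probe sets and 0 genes in Snf2h cKO eyes, 50 and 49 in Brg1 cKO eyes and 81 probe sets for the interaction. In each of the 3 comparisons 0 of the 14 member probe sets passed with the block.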
